A study of Rattus norvegicus with 4 samples.

Results

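The 10 genes described here are ones that astrocytes are known to switch on or raise when the nervous system is injured or inflamed and they are Gfap, Vim, Lcn2, Serpina3n, Timp1, Hspb1, Cd44, Emp1, Osmr and Steap4. They were found through the accession that each probe carries, matched to the rat genes of these names, and all 10 were present, with 14 probes of the 30367 on the array and 48 spots. Total RNA of the spinal dorsal horn, the part of the cord that receives sensory input, had been hybridised to 4 Agilent 2-colour arrays. The Cy5 channel held RNA of male rats aged 6 weeks that had received oxaliplatin, a platinum chemotherapy drug known for a painful neuropathy (2 arrays), or its vehicle (2 arrays), taken on day 10. The Cy3 channel of all 4 arrays held, per the labels, RNA of untreated male rats aged 6 weeks, so the vehicle arrays carried it too. The labels call the arrays of a group biological replicates. The sources used here state neither the dose nor whether rats were pooled for an array. P-values measure only the spread between these arrays. The dyes were not swapped, so a difference between the channels cannot be told apart from an effect of the dye. Both oxaliplatin arrays lay on 1 slide and both vehicle arrays on another, so slide and group cannot be told apart.

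Astrocytes are the star-shaped glia of the brain and cord. After injury or inflammation they enlarge and change their transcripts, a state called reactive, in which the filament proteins Gfap and Vim are classical markers. Cytokines of the interleukin-6 family, acting through receptors such as Osmr and the transcription factor Stat3, are a well-known trigger. Few of these genes belong to astrocytes alone: Vim, Timp1, Cd44 and Emp1 are also made by fibroblasts and Schwann cells, and Lcn2 by neutrophils. In tissue RNA, fewer cells of a type and less RNA per cell cannot be told apart.

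The genes did not share a direction between the channels. Vim, Steap4, Hspb1, Timp1, Cd44 and Osmr had higher Cy5 than Cy3 on all 4 arrays, Gfap had lower Cy5 than Cy3 on all 4 (34% of all genes were above 0 on all 4 arrays and 27.6% below), and Lcn2, Serpina3n and Emp1 lay on both sides of 0. Between oxaliplatin and vehicle, 0 of the 10 passed the test. Most of the movement of these genes from array to array was in Cy3, the untreated RNA, and not in Cy5.

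**Figure D1:**
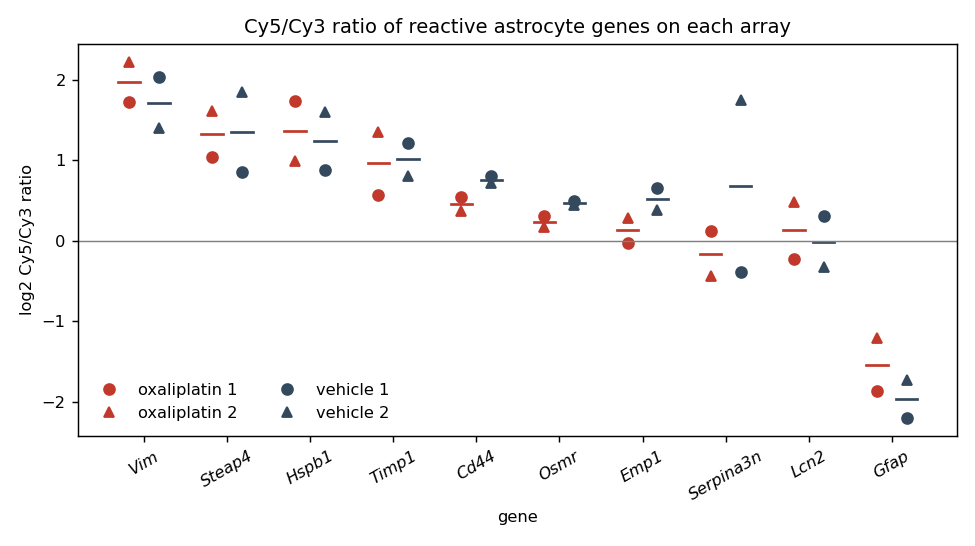
Log2 Cy5/Cy3 ratio (vertical axis) of the 10 genes on each array, oxaliplatin left of vehicle, with replicate 1 as a circle, replicate 2 as a triangle and a bar at the mean of 2 arrays. Vim lies between 1.40 and 2.22, and Gfap is lowest on every array, between -2.20 and -1.21, while the groups lie apart for Cd44, Osmr and Emp1 only.

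Because Stat3 is a well-known factor upstream of this response, the 250 bases before the start site of each gene were searched on both strands. The patterns were TTCNNNGAA (the Stat motif), TGANTCA (AP-1, with any base in the middle) and TATAAA (the TATA box letters, at any position). The sequences are those of RefSeq (GRCr8), and all 10 genes had one. A Stat match was present in 3 of the 10 (Serpina3n, Emp1 and Steap4), and in 7.67% of all 33469 promoter windows of that length. AP-1 matches were present in Emp1 (TGAGTCA and TGATTCA) and Osmr (TGATTCA), beside 6.34% of all windows. TATAAA was present in Vim, beside 12.9% of all windows. It lay at -82 to -77 from the start site, and whether it acts as a TATA box was not tested. In Emp1 a Stat match and the TGATTCA match overlap. The windows of Gfap and Vim, the pair with opposite ratios, and of the 3 genes with a Stat match are printed with the matches in capitals. A match is a description of the letters and no evidence of binding.
Gfap, chr10:88361662-88361911, - strand: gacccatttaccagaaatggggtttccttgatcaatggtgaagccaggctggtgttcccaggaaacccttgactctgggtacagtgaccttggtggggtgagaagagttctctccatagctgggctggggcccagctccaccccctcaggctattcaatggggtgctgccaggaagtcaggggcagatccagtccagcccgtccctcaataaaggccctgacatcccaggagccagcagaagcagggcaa
Vim, chr17:81577011-81577260, + strand: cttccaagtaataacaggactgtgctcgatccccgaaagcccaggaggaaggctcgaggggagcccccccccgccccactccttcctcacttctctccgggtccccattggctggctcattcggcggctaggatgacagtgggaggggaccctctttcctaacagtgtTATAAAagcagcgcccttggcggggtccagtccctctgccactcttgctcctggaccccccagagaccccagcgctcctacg
Serpina3n, chr6:129088142-129088391, + strand: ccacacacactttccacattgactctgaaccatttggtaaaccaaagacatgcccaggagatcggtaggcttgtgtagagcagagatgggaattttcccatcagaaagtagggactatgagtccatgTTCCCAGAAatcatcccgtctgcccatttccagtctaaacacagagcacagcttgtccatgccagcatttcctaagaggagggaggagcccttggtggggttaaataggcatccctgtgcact
Emp1, chr4:169943980-169944229, + strand: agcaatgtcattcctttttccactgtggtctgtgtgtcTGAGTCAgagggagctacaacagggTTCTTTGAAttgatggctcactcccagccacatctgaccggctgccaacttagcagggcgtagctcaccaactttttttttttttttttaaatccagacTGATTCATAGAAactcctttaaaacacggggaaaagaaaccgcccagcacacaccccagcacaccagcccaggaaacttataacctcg
Steap4, chr4:27054770-27055019, - strand: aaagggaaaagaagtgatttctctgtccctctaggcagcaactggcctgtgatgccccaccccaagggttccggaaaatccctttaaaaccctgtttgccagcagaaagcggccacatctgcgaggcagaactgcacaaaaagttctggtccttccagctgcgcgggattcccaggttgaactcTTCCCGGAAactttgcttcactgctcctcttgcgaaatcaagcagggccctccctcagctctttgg

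On every array repeat spots of the same probe gave close values, which shows how far the arrays differ beyond the measurement of a spot. Gfap, Vim and Timp1 were each printed 10 times, and on an array the log2 ratio of these spots had an SD of 0.031 to 0.11. The arrays of a group lay further apart than that, by 0.65 (oxaliplatin) and 0.47 (vehicle) for Gfap. In Cy5, 85.2% to 87.6% of spots were well above background, and in Cy3 80.0% to 89.7%. The median Cy3 signal was lowest on oxaliplatin replicate 2, at 283.5 against 494 to 564 on the other arrays. Ratios of the arrays correlated with each other by 0.75 to 0.93 over the 22821 genes tested. All signals given below on the log2 scale were normalised, and no level is compared between genes.

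Gfap, the intermediate filament protein of astrocytes, had log2 Cy5/Cy3 ratios of -1.87 and -1.21 on the oxaliplatin arrays, against -2.20 and -1.73 on the vehicle arrays. The ratio was below 0 on all 4 arrays, and the groups overlapped. Cy5 signals were thus 0.344 times the Cy3 signals on the oxaliplatin arrays (limma against 0, adjusted p = 0.00102) and 0.256 times on the vehicle arrays (adjusted p = 3.09e-04). Over all genes tested, 34.8% were called on the oxaliplatin arrays in either direction and 45.5% on the vehicle arrays. The difference between the groups in the ratio was 0.43 ± 0.25 (SE, n = 2 arrays per group, adjusted p = 0.455), and it ranged from 0.099 to 0.75 when an array was left out. As read by the scanner, the 10 spots averaged 4165 and 4067 in Cy5 on the oxaliplatin arrays, against 4657 and 3915 on the vehicle arrays. In Cy3 they averaged 6885 and 2437 on the oxaliplatin arrays, against 12170 and 6819 on the vehicle arrays. These readings are not normalised, and the lowest Cy3 value fell on the array with the dimmest Cy3. After normalisation, Gfap had a range over the 4 arrays of 0.50 in Cy5 and of 1.38 in Cy3 (log2).

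Vim, the filament protein that reactive astrocytes share with fibroblasts, endothelium and Schwann cells, had ratios of 1.72 and 2.22 on the oxaliplatin arrays, against 2.03 and 1.40 on the vehicle arrays. All were above 0 and the groups overlapped. Cy5 over Cy3 was 3.92 on the oxaliplatin arrays (adjusted p = 3.94e-04) and 3.28 on the vehicle arrays (adjusted p = 5.29e-04). The difference between the groups in the ratio was 0.26 ± 0.25 (adjusted p = 0.657). Gfap had the lowest ratio of the 10 genes on each array. Vim had the highest on oxaliplatin replicate 2 and vehicle replicate 1, Hspb1 on oxaliplatin replicate 1 and Steap4 on vehicle replicate 2.

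The receptor Osmr, through which oncostatin M signals to Stat3, had ratios of 0.31 and 0.16 on the oxaliplatin arrays, against 0.49 and 0.45 on the vehicle arrays. The oxaliplatin values lay below the vehicle values, with a difference of -0.23 ± 0.12 (adjusted p = 0.407). Against 0 it was called on the vehicle arrays (adjusted p = 0.00446) and not on the oxaliplatin arrays (adjusted p = 0.0691), and the vehicle call was lost when either vehicle array was left out (adjusted p = 0.0593 and 0.0505).

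Cd44, the cell-surface receptor for hyaluronan, had ratios of 0.54 and 0.37 on the oxaliplatin arrays, against 0.80 and 0.72 on the vehicle arrays, at its brightest probe. The groups did not overlap, and the difference was -0.30 ± 0.12 (unadjusted p = 0.0438, adjusted p = 0.334). Both channels were brighter on the oxaliplatin arrays. In Cy5 it was 11.79 and 11.79 on the oxaliplatin arrays, against 11.50 and 11.53 on the vehicle arrays (log2). In Cy3 it was 10.19 and 10.35 on the oxaliplatin arrays, against 9.62 and 9.74 on the vehicle arrays. The lower ratio thus went with a larger difference in Cy3, 0.59 ± 0.15, than in Cy5, 0.28 ± 0.075, neither of which passed (adjusted p = 0.172 and 0.204).

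The 4 probes of Cd44 did not give the same picture. A second probe, A_64_P130995, had Cy5 signals of 7.99 and 7.74 on the oxaliplatin arrays, against 9.54 and 8.94 on the vehicle arrays. It was thus lower by 1.37 on the oxaliplatin arrays in Cy5 and by 0.91 in Cy3, opposite to the brightest probe in both channels. Its ratios nevertheless moved the same way, at 0.51 and 0.11 on the oxaliplatin arrays, against 0.67 and 0.50 on the vehicle arrays. Each of these probes was a single spot, well above background in both channels on all 4 arrays, and the difference of this second probe was not tested. Another probe, A_64_P280765, differed by 0.11 in the ratio, by -0.028 in Cy5 and by -0.094 in Cy3. It was dim, with Cy5 of 121.5 to 155.75 as read beside a background of 69 to 80.5. The fourth, A_64_P130999, was not well above background in Cy5 on any array and did not enter the test, which left 13 of the 14 probes. With the mean over the probes, Cy5 over Cy3 on the oxaliplatin arrays was 0.25 (log2) and no longer called (adjusted p = 0.0598).

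Lcn2, a secreted carrier of iron-binding siderophores that marks strongly reactive astrocytes, had ratios of -0.23 and 0.48 on the oxaliplatin arrays, against 0.30 and -0.32 on the vehicle arrays. Each group had an array on either side of 0, and the difference was 0.14 ± 0.28 (adjusted p = 0.848). Timp1, a secreted inhibitor of matrix metalloproteinases, had ratios of 0.57 and 1.35 on the oxaliplatin arrays, against 1.22 and 0.80 on the vehicle arrays. Its Cy5 was called higher than Cy3 on the oxaliplatin arrays (1.95-fold, adjusted p = 0.00904) and on the vehicle arrays (2.01-fold, adjusted p = 0.00516). The difference between the groups was -0.050 ± 0.26 (adjusted p = 0.951), and its sign turned with median centring (0.068) and with scaled ratios (0.12).

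Serpina3n, a secreted inhibitor of serine proteases, had ratios of 0.12 and -0.44 on the oxaliplatin arrays, against -0.38 and 1.74 on the vehicle arrays. A single array, vehicle replicate 2, stood apart. The Cy3 signal as read there was 91.0, against 350.5 and 313 on the oxaliplatin arrays and 731 on vehicle replicate 1, while Cy5 was 610.5 there and 694 to 853 on the others. The 2 spots of the probe gave nearly the same value on that array. The difference between the groups was -0.84 ± 0.61 (adjusted p = 0.545). Without vehicle replicate 2 it was 0.22 (adjusted p = 1), and without vehicle replicate 1 it was -1.91 and passed the test (adjusted p = 0.0322), with the spread taken from the 2 oxaliplatin arrays alone and the lone vehicle array assumed to vary like them.

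Hspb1, a small heat shock protein that binds filaments and unfolded proteins, was read from 1 spot per array. It had ratios of 1.74 and 0.98 on the oxaliplatin arrays, against 0.88 and 1.60 on the vehicle arrays. Its Cy5 was called higher than Cy3 on the oxaliplatin arrays (2.57-fold, adjusted p = 0.00401) and on the vehicle arrays (2.36-fold, adjusted p = 0.00408). The groups differed by 0.12 ± 0.31 (adjusted p = 0.881), and without oxaliplatin replicate 1 or without vehicle replicate 1 the sign turned (-0.25 and -0.24).

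Emp1, a membrane protein of the PMP22 family, had ratios of -0.031 and 0.29 on the oxaliplatin arrays, against 0.66 and 0.38 on the vehicle arrays. The oxaliplatin values lay below the vehicle values, by -0.39 ± 0.16 (unadjusted p = 0.0465, adjusted p = 0.337). As for Cd44, both channels were brighter with oxaliplatin, with differences of 0.23 ± 0.086 in Cy5 and 0.62 ± 0.16 in Cy3, neither of which passed (adjusted p = 0.249 and 0.173). On the vehicle arrays Cy5 was called higher than Cy3 (adjusted p = 0.00997), a call lost without vehicle replicate 1 (adjusted p = 0.128).

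Steap4, a metalloreductase of iron and copper, had ratios of 1.04 and 1.61 on the oxaliplatin arrays, against 0.85 and 1.84 on the vehicle arrays, at its brighter probe. Cy5 was called higher than Cy3 in both groups, 2.50-fold on the oxaliplatin arrays (adjusted p = 0.0062) and 2.54-fold on the vehicle arrays (adjusted p = 0.00403). With the log ratio of the scanner software the oxaliplatin value was 1.64 and not called (adjusted p = 0.0520). The groups differed by -0.024 ± 0.33 (adjusted p = 0.982). The second probe of Steap4 had smaller ratios, of 0.22 and 0.053 on the oxaliplatin arrays, against 0.27 and 0.32 on the vehicle arrays. It was dim, with Cy3 of 77 to 161.5 as read beside a background of 42.5 to 50.5. The brighter probe was also dim in Cy3 on oxaliplatin replicate 2 (103.25) and vehicle replicate 2 (106.5), where its ratios were highest. At such signals the offset of 50 pulls ratios towards 0. In the scanner software's log ratio, which does not use that offset, the probes still disagreed. The brighter had 1.05 and 2.23 (log2) on the oxaliplatin arrays, against 0.98 and 2.57 on the vehicle arrays. The second had 0.27 and -0.11, against 0.32 and 0.90. The size of the Steap4 ratio thus depended on the probe.

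Whether the drug altered these transcripts relative to its vehicle is the question of the design. In the ratio, 0 of the 10 genes and 0 of all 22821 genes tested (0%) passed at an adjusted p under 0.05, while 3342 genes (14.6%), Cd44 and Emp1 among them, had an unadjusted p under 0.05. The groups did not overlap for 3 of the 10 genes, all with lower ratios on the oxaliplatin arrays. Over all genes 49.2% did not overlap, 22.2% with lower and 27% with higher ratios on the oxaliplatin arrays, beside 3 and 0 of the 10. The median difference of the 10 genes was -0.037, with 4 higher and 6 lower, beside 0.0055 for all genes, with 11684 higher and 11137 lower. It depended on the scaling of the arrays and was 0.0012 with median centring and 0.14 with scaled ratios.

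**Figure D2:**
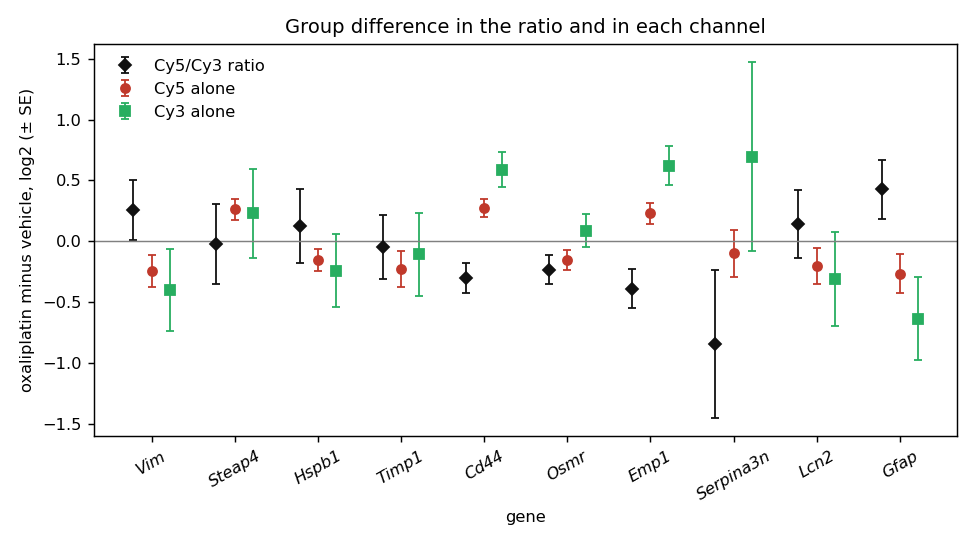
Difference of oxaliplatin minus vehicle (log2, vertical axis) for each gene in the Cy5/Cy3 ratio, in Cy5 alone and in Cy3 alone, with bars of 1 SE from the fit (2 arrays per group). Cd44 and Emp1 lie below 0 in the ratio (-0.30 and -0.39) and above 0 in both channels, and the bars of Serpina3n are the widest.

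In Cy5 alone, the channel of the treated rats, 0 of the 10 genes and 0% of all genes passed, with 20.4% of all genes at an unadjusted p under 0.05. Lower signals on both oxaliplatin arrays than on both vehicle arrays were found for Gfap, Vim, Timp1, Hspb1 and Osmr, and higher ones for Cd44, Emp1 and Steap4. Over all genes 32.1% were lower and 28.3% higher without overlap, 60.4% in all, beside 5 and 3 of the 10. For Vim the Cy5 signal was 12.80 and 12.76 on the oxaliplatin arrays, against 12.86 and 13.19 on the vehicle arrays, a difference of -0.24 ± 0.13 (adjusted p = 0.349). For Gfap it was 11.93 and 11.86 on the oxaliplatin arrays, against 12.36 and 11.96 on the vehicle arrays, a difference of -0.27 ± 0.16 (adjusted p = 0.377). The direction of the Gfap difference in Cy5 was thus opposite to that in the ratio, and neither passed. Without vehicle replicate 1, Vim (-0.40, adjusted p = 0.0378) and Timp1 (-0.41, adjusted p = 0.0363) passed in Cy5, beside 5399 of all genes. That fit takes its spread from the 2 oxaliplatin arrays alone, whose Cy5 signals were nearly the same, and assumes that the lone vehicle array varies like them.

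In Cy3 alone, which the labels describe as untreated on every array, 0 of the 10 genes and 0% of all genes passed, with 20.8% of all genes at an unadjusted p under 0.05. The groups did not overlap for Cd44, Emp1 and Osmr, all higher on the oxaliplatin arrays, which is 3 of 10 beside 26.8% of all genes, and 0 of the 10 were lower, beside 31.2%, so that 58.1% of all genes did not overlap. Emp1 had Cy3 signals of 9.87 and 9.64 on the oxaliplatin arrays, against 9.04 and 9.22 on the vehicle arrays (adjusted p = 0.173).

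Between the arrays of a group, these genes moved mostly in Cy3. In Cy5 the oxaliplatin arrays differed by at most 0.11 for any of the 10 genes, with a median of 0.075, beside a median of 0.071 over all genes. In Cy3 the same arrays differed by a median of 0.61 over the 10 genes, beside 0.17 over all genes. The vehicle arrays differed by a median of 0.22 in Cy5 (0.16 over all genes) and of 0.76 in Cy3 (0.18 over all genes). The median spread of the 10 genes in Cy3 was thus larger than that of all genes, which is given as a description with no test. For Osmr the gap between the oxaliplatin arrays was 0.035 in Cy3 against 0.094 in Cy5. Between the vehicle arrays it was 0.092 in Cy3 against 0.056 in Cy5. Osmr was dim in Cy3, at 95 to 143 as read beside a background of 41.5 to 47, which limits what its small gap shows.

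The genes did not all vary in the same order. Vim, Timp1 and Lcn2 had higher Cy3 on oxaliplatin replicate 1 and vehicle replicate 2, and lower Cy3 on the other 2 arrays. For Timp1 the Cy3 signal was 11.00 and 10.25 on the oxaliplatin arrays, against 10.36 and 11.10 on the vehicle arrays. For Lcn2 it was 8.15 and 7.38 on the oxaliplatin arrays, against 7.61 and 8.54 on the vehicle arrays. Hspb1 and Serpina3n had the opposite order, with Hspb1 at 11.44 and 12.09 on the oxaliplatin arrays, against 12.32 and 11.70 on the vehicle arrays. Gfap and Steap4 followed neither and were higher on replicate 1 of both groups, with Steap4 at 7.95 and 7.35 on the oxaliplatin arrays, against 7.91 and 6.94 on the vehicle arrays. The arrays number 4, and no test was made of these orders.

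**Figure D3:**
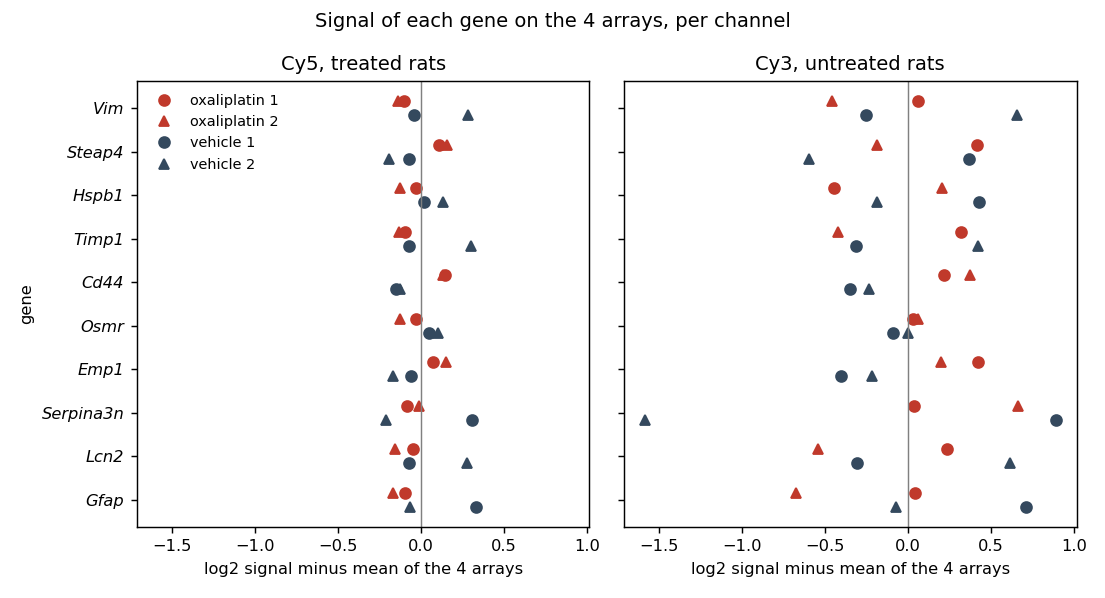
Log2 signal of each gene on each array minus its mean over the 4 arrays (horizontal axis), for Cy5 on the left and Cy3 on the right, with oxaliplatin in red above vehicle in dark blue. The points lie close together in Cy5, where the 2 oxaliplatin arrays differ by at most 0.11, and spread widely in Cy3, most of all Serpina3n with a range of 2.48.

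Over the whole array, the Cy5 signals of the 2 oxaliplatin arrays were closer to each other than any other pair of arrays. Over 12339 probes with 2 spots each they differed with a spread of 0.0965 (median absolute deviation, log2), beside 0.0689 expected from the disagreement of the spots. The vehicle arrays differed by 0.207 in Cy5 beside 0.0902 from their spots. In Cy3 the oxaliplatin arrays differed by 0.247 beside 0.0800, and the vehicle arrays by 0.268 beside 0.0883. Whether the oxaliplatin arrays held the same Cy5 extract is stated by none of the sources. With these arrays averaged and counted as 1 sample, 0 of the 10 genes passed in the ratio or in Cy5.

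The direction of the Cy5/Cy3 ratio of these genes stood beside large differences in the markers of other cells. Against 0, Cy5 was higher for 5 of the 10 genes on the oxaliplatin arrays and for 7 on the vehicle arrays, and lower for Gfap in both. Over all genes Cy5 was called higher for 19% on the oxaliplatin and 23.4% on the vehicle arrays, and lower for 15.8% on the oxaliplatin and 22.1% on the vehicle arrays. Of 16 homeostatic astrocyte markers, genes that resting astrocytes use, Cy5 was called lower for 8 on the oxaliplatin and 11 on the vehicle arrays, and higher for 3 on the oxaliplatin and 2 on the vehicle arrays. S100b, a calcium-binding protein, had ratios of -0.86 and -0.45 on the oxaliplatin arrays, against -1.22 and -1.31 on the vehicle arrays. The glutamate transporter Slc1a3 went the other way, at 1.27 and 1.32 on the oxaliplatin arrays, against 1.38 and 1.58 on the vehicle arrays. Gfap thus lay on the side of most astrocyte markers, and Vim, Timp1, Hspb1, Steap4 and Cd44 on the other.

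Markers of Schwann cells and sensory ganglia were far higher in Cy5. For 12 of the 14 measured Cy5 was called higher in both groups and for 1 lower, with a median of the mean ratios of 2.93 on the oxaliplatin and 2.92 on the vehicle arrays. Scn10a, a sodium channel of pain-sensing neurons, which reside in sensory ganglia outside the cord, had ratios of 5.57 and 4.97 on the oxaliplatin arrays, against 5.05 and 5.76 on the vehicle arrays. The summed Cy5 signal of the list was 300160 to 313508 on the oxaliplatin arrays and 335730 to 338072 on the vehicle arrays. In Cy3 it was 21613 to 25255 on the oxaliplatin arrays and 19042 to 22825 on the vehicle arrays. The channels were normalised separately, so sums in Cy5 and Cy3, here and below, are not on 1 scale. Over all genes the Cy5 sum was 209821961 to 210902452 on the oxaliplatin arrays and 201748882 to 209253869 on the vehicle arrays. The Cy3 sum over all genes was 71686231 to 73019530 on the oxaliplatin arrays and 69447684 to 71661961 on the vehicle arrays. Of 10 fibroblast and meningeal markers, Cy5 was called higher for 8 on the oxaliplatin and 7 on the vehicle arrays and lower for 0. Their summed Cy5 signal was 103353 to 108426 on the oxaliplatin arrays and 103310 to 104099 on the vehicle arrays, and in Cy3 it was 15249 to 17032 on the oxaliplatin and 14081 to 15183 on the vehicle arrays. Of 10 oligodendrocyte markers Cy5 was called lower for 9 on the oxaliplatin arrays and for all 10 on the vehicle arrays. The part of these other cells in the ratios of Vim, Timp1, Cd44 and the rest was not tested.

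**Figure D4:**
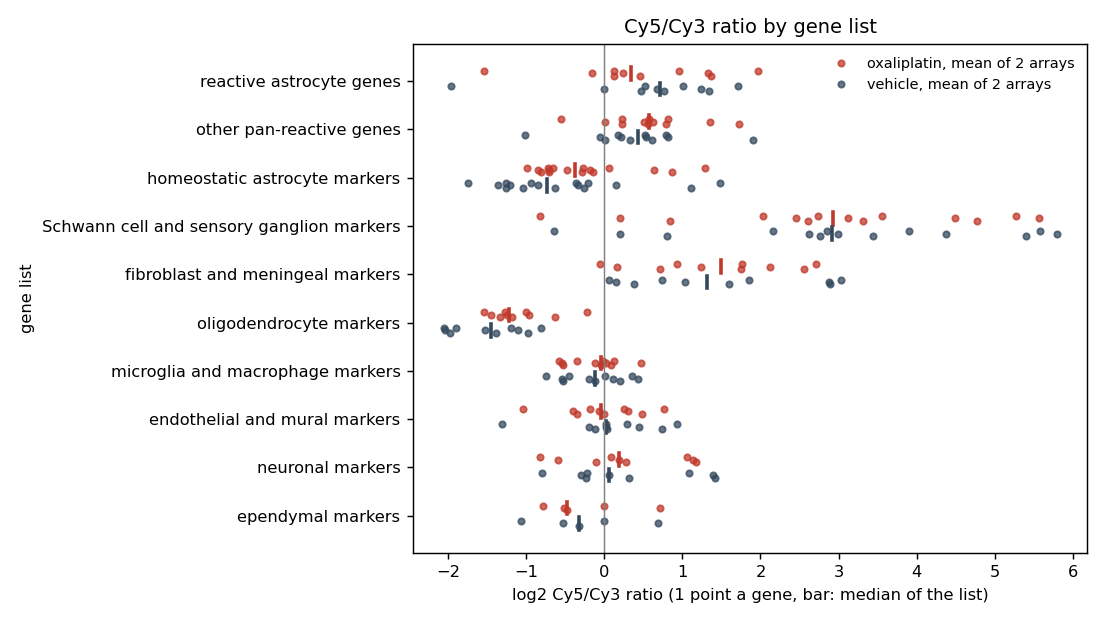
Log2 Cy5/Cy3 ratio (horizontal axis) of each measured gene of 10 lists, with oxaliplatin in red above vehicle in dark blue, each point the mean of 2 arrays and each bar the median of a list. Schwann cell and sensory ganglion markers lie furthest to the right (medians of 2.93 with oxaliplatin and 2.92 with vehicle), oligodendrocyte markers furthest to the left (-1.22 with oxaliplatin and -1.46 with vehicle), and the reactive astrocyte genes span both sides (0.34 with oxaliplatin and 0.72 with vehicle).

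Microglia markers went both ways in the ratio. Of 11, Cy5 was called higher for 1 on the oxaliplatin and 2 on the vehicle arrays and lower for 2 on the oxaliplatin and 3 on the vehicle arrays, and 4 lay below 0 on all 4 arrays. The median of their mean ratios was -0.039 on the oxaliplatin and -0.12 on the vehicle arrays, and 0 of the 11 passed between the groups. Endothelial and mural markers had medians of -0.038 on the oxaliplatin and 0.023 on the vehicle arrays, and neuronal markers of 0.19 on the oxaliplatin and 0.061 on the vehicle arrays. Ependymal markers, of which 5 of 8 were measured, had medians of -0.48 on the oxaliplatin and -0.33 on the vehicle arrays. Between oxaliplatin and vehicle 0 members of any of these lists passed.

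Other genes known from reactive astrocytes gave the same mixture. To set beside the lists here and below, Cy5 was called higher for 19% of all genes on oxaliplatin and 23.4% on vehicle arrays. It was called lower for 15.8% on the oxaliplatin and 22.1% on the vehicle arrays. Of 12 further genes, all measured, Cy5 was called higher for 7 on the oxaliplatin and 6 on the vehicle arrays, and lower for 1 in each. The called ones included Synm, a filament protein that assembles with Vim, with ratios of 2.02 and 1.43 on the oxaliplatin arrays, against 1.76 and 2.06 on the vehicle arrays. Chi3l1, a secreted chitinase-like protein, was on the side of Gfap, at -0.65 and -0.46 on the oxaliplatin arrays, against -0.86 and -1.18 on the vehicle arrays. Between the groups 0 of the 12 passed, with a median difference of 0.039. The differences with the smallest p were those of Aspg, an asparaginase, at 0.53 ± 0.11, of Nes, the filament protein nestin, at 0.48 ± 0.13, and of Chi3l1 at 0.46 ± 0.15 (adjusted p = 0.294, 0.294 and 0.306). For Aspg both oxaliplatin ratios, 1.36 and 1.34, lay above both vehicle ratios, 0.82 and 0.81. In Cy5 alone Aspg differed by 0.15, Nes by -0.29 and Chi3l1 by -0.27. In Cy3 alone they differed by -0.37, -0.69 and -0.70.

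In the pathway of the interleukin-6 family, 15 of 16 ligands, receptors, kinases and targets were measured. Cy5 was called higher for 4 on the oxaliplatin and 5 on the vehicle arrays and lower for 1 in each, a different gene in each group, and 0 passed between the groups, with a median difference of 0.023. Stat3 itself had ratios of 1.08 and 0.49 on the oxaliplatin arrays, against 0.83 and 0.76 on the vehicle arrays. Lifr, a receptor of leukaemia inhibitory factor, differed by -0.46 ± 0.16 (adjusted p = 0.308), the smallest p of the list. In Cy5 alone Lifr differed by 0.16 and in Cy3 alone by 0.61. Of 12 measured partners of the secreted genes and of the filaments, Cy5 was called higher for 4 in each group and lower for 3 on the oxaliplatin and 4 on the vehicle arrays. Timp3, a matrix-bound relative of Timp1, differed by 0.44 ± 0.16 (adjusted p = 0.313), and 0 of these 12 passed. In Cy5 alone Timp3 differed by -0.15 and in Cy3 alone by -0.55.

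Genes reported in astrocytes after inflammatory stimulation, 9 of 9 measured, were called higher in Cy5 for 2 on the oxaliplatin and 3 on the vehicle arrays and lower for 1 in each. The lower one was complement C3, with ratios of -1.92 and -1.08 on the oxaliplatin arrays, against -1.12 and -1.45 on the vehicle arrays. Serping1, the inhibitor of complement C1, was among the higher ones and differed by -0.29 ± 0.14 between the groups (adjusted p = 0.385). In Cy5 alone Serping1 differed by 0.037 and in Cy3 alone by 0.34. Of the genes reported after ischaemia, 8 of 11 were measured, with Cy5 higher for 3 on the oxaliplatin and 4 on the vehicle arrays and lower for 1 in each. S100a10, an annexin partner, had ratios of 2.86 and 2.13 on the oxaliplatin arrays, against 2.65 and 2.99 on the vehicle arrays. Between the groups 0 genes of either list passed.

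In the ratio, the homeostatic astrocyte markers had a median difference of 0.38 between the groups, with 13 of 16 higher on the oxaliplatin arrays. The reactive genes had -0.037 with 4 of 10 higher, while the further reactive genes had 0.039 with 9 of 12 higher. Over all genes the median was 0.0055, with 11684 of 22821 higher. Among the homeostatic markers, Mlc1, a membrane protein of astrocyte endfeet, differed by 1.04 ± 0.23 and S100b by 0.61 ± 0.16 (adjusted p = 0.294 for each). In Cy5 alone Mlc1 differed by -0.36 and S100b by 0.047, and in Cy3 alone by -1.33 and -0.41. The homeostatic marker Glul differed by 0.45 ± 0.12 in the ratio (adjusted p = 0.294) and moved more in Cy5 (0.97) than in Cy3 (0.44). The median difference of the homeostatic list was 0.020 in Cy5 and -0.15 in Cy3. Rises and falls cancel in such a median, so it does not measure which channel moved more. Oligodendrocyte markers had a median difference of 0.40, with 9 of 10 higher on the oxaliplatin arrays. Their median difference was -0.20 in Cy5 alone and -0.44 in Cy3 alone. Col1a1, a fibrillar collagen of fibroblasts, differed by -0.77 ± 0.17 in the ratio (adjusted p = 0.294), by 0.20 in Cy5 alone and by 0.96 in Cy3 alone. It was the lowest of the 10 fibroblast and meningeal markers, and Ogn was the highest at 0.85. The median difference of that list in the ratio was -0.096, with 3 higher and 7 lower on the oxaliplatin arrays. None of these passed over all genes, and the medians of the homeostatic and reactive lists were not tested against each other. Without oxaliplatin replicate 1, Mlc1, S100b and Col1a1 passed (adjusted p = 0.0419, 0.0364 and 0.0402), beside 937 of all genes. That fit takes its spread from the 2 vehicle arrays alone and assumes that the lone oxaliplatin array varies like them.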

How the data were processed

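Total RNA was measured on 4 Agilent 2-colour arrays, 2 per group, with groups and replicate numbers from the sample titles. Per the file headers, the deposited scanner files (Feature Extraction 10.7.1.1, while the submitters' processing notes name 8.5.1.1) hold the median intensity of each spot and of its background per channel, flags (other values than signals), and a log10 ratio of Cy5 over Cy3. The authors' deposited value table holds the same log10 ratios (largest gap 0.0050), with medians of -0.00277, 0, -0.00492 and -0.00316 for oxaliplatin 1 and 2 and vehicle 1 and 2, so scale and direction match and it was not centred further. The number of columns left unmapped was 0. Intensities were corrected with normexp (offset 50), using R 4.3.3 with limma 3.58.1, log2 ratios were normalised by loess, and single channels by quantiles, each without the control spots. Outlier spots were left out (1 value of a spot of these genes) and spots averaged per probe. Of 30367 probes, 18758 had a symbol through their accession, and 26002 passed the filter (Cy5 well above background, 2 arrays or more). All 10 genes passed that filter, and each gene was represented by its brightest probe.

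The groups were compared by lmFit and eBayes (two-sided, with 2 residual and 4.74 prior degrees of freedom), and p-values were adjusted by Benjamini-Hochberg over 22821 genes (threshold 0.05). The groups' ratios were tested against 0 in the same fit. The alternatives covered the scaling, the background correction, the filter, the probes, the pairing and each array. The genes and the 13 other lists were chosen with earlier results of these data known. Of those lists, the 3 genes with the smallest p and the 3 with the largest mean ratio could be named, and a part of them was. The replicate numbers gave a correlation of same-numbered deviations of -0.22, so they were not used as pairs.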

Additional observations from a re-analysis of the deposited data

How the results depend on the processing

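Of 140 values of the 10 genes' differences in the ratio under alternatives, 126 kept their direction and their side of the threshold, 13 changed sign and 1 passed the threshold. Of 150 values in single channels 136 were kept, 11 changed sign and 3 passed, and of 160 ratios against 0, 148 were kept, 6 changed sign, 5 lost the call and 1 gained it. The causes were not tested. The replicate block and the oxaliplatin arrays as 1 sample leave each difference as reported, and the other filters kept the same probes of these genes. The mean over probes could change only Cd44 and Steap4, and the authors' table repeats the scanner ratio. The counts of kept values thus overstate how much was open to change. Genes called over the whole array between the groups numbered 0 as reported and 2 to 937 when an array was left out, 3 with the replicate block, 537 with a block of crossed replicate numbers and 13 with the oxaliplatin arrays as 1 sample (the last 2 chosen after the data were seen). Of the 10 genes, 0 to 1 were called when an array was left out. In Cy5 alone 0 to 5399 genes and 0 to 2 of the 10 were called then, and in Cy3 alone 0 to 1296 genes and 0 to 1 of the 10. The replicate block called none of the 10. In this balanced design it leaves each difference unchanged, so it cannot turn a sign. The median difference of the 10 was -0.094 with the deposited scanner ratio and with the authors' value table, 0.0012 with median centring, -0.066 with no background correction, 0.14 with scaled ratios, -0.071 with the mean over probes, and -0.22 to 0.016 leaving out an array. In Cy5 alone it was -0.20 to -0.063 then. Genes called against 0 numbered 12199 on the oxaliplatin arrays with median centring, and 4975 to 12114 on the vehicle arrays leaving out an array.

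Leaving out an array, the difference in the ratio spanned -0.063 to 0.57 for Vim, -0.22 to 0.50 for Lcn2, -1.91 to 0.22 for Serpina3n, -0.44 to 0.34 for Timp1, -0.25 to 0.50 for Hspb1 and -0.52 to 0.47 for Steap4. With scaled ratios Timp1 was at 0.12 and Steap4 at 0.20, and with median centring Timp1 was at 0.068. In Cy3 alone the spans were -0.85 to 0.055 for Vim, -0.77 to 0.15 for Lcn2, -0.54 to 1.94 for Serpina3n, -0.48 to 0.27 for Timp1, -0.57 to 0.083 for Hspb1 and -0.25 to 0.71 for Steap4, and in Cy5 alone -0.36 to 0.16 for Serpina3n. The ratio against 0 on the oxaliplatin arrays spanned -0.23 to 0.48 for Lcn2, -0.44 to 0.12 for Serpina3n and -0.031 to 0.29 for Emp1, which was at -0.026 with the deposited scanner ratio. On the vehicle arrays it spanned -0.32 to 0.30 for Lcn2 and -0.38 to 1.74 for Serpina3n. Each fit that leaves out an array takes its spread from the other group's 2 arrays alone. The number of arrays limits the precision.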
